A study of Oryctolagus cuniculus with 6 samples.

Results

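The genes described here build or mark the axon: the neurofilament subunits NEFL, NEFM and NEFH, the related filament proteins INA and PRPH, the growth proteins GAP43 and STMN2, the enzyme UCHL1 and the neuronal tubulin TUBB3. They were chosen by symbol, and all 9 were found among the 17396 genes of the count files. Of these, 8 are listed by their symbol, and TUBB3 is listed as LOC100341581, which RefSeq names TUBB3 in its table for the assembly mOryCun1.1. The RNA came from the facial nerve of 6 wild type rabbits, which the methods give as male Japanese white rabbits aged 3 to 4 months, with 1 library per rabbit. In the FNI group (facial nerve injury), 3 rabbits had the main trunk of the nerve transected. In the FNI+I-125 group, 3 rabbits had the same transection and an I-125 seed of 0.8 mCi, a small sealed source of low-energy γ-rays, implanted beside the nerve. All nerves were taken on day 14, so that both groups carried a transection and uninjured nerve was not part of the comparison.

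Neurofilaments are the main intermediate filaments of large axons. They assemble from a light (NEFL), a medium (NEFM) and a heavy (NEFH) subunit, to which α-internexin (INA) or peripherin (PRPH) can be added, and they set the calibre of the axon. GAP43 lies under the membrane of the growth cone, STMN2 binds tubulin and is made by growing neurons, UCHL1 is an abundant neuronal ubiquitin hydrolase, and TUBB3 is the β-tubulin used to stain neurons. Neurons make most of the mRNA for these proteins in their cell bodies, which for the facial nerve lie in the brainstem and the ganglia and not in the nerve trunk. Schwann cells, the glia of the nerve, are known to make GAP43 after they lose contact with axons. A sample of nerve trunk therefore measures mRNA of the glia and other cells of the nerve, together with what mRNA the axons themselves carry.

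Total counts ran from 16031151 to 16798012 per library, so that 3 counts, the upper limit that a count of 0 allows for counting error, were worth 0.179 to 0.187 CPM (counts scaled to a common library size). Values are given as counts and as CPM on a library size normalized by the TMM method of edgeR. FNI replicate 3 stood apart from the other libraries. The summed level of 5 myelin genes (MBP, PMP22, PRX, MAG and PMP2) was 12310 CPM in this library, 1794 and 824 CPM in FNI replicates 1 and 2, and 212, 881 and 190.1 CPM in FNI+I-125 replicates 1, 2 and 3. FNI+I-125 replicates 1 and 2 held skeletal muscle transcripts, with a summed level of 4308 and 3756 CPM over 9 listed genes, where the other 4 libraries held 19.5 to 77.9 CPM. Since the samples are bulk tissue, fewer cells of a type and less RNA per cell cannot be told apart.

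Most of the axonal genes were barely measurable. A gene entered the test if it passed the filterByExpr filter of edgeR (minimum count 10), and 3 of the 9 genes did so, namely UCHL1, TUBB3 and GAP43. UCHL1 and TUBB3 were the 2 genes with at least 10 counts in every library. NEFL, NEFM, NEFH, INA, PRPH and STMN2 did not pass, and of these NEFL and PRPH had a count in every library. The plot of the 9 genes by library shows that 5 of them, NEFL, NEFH, PRPH, STMN2 and UCHL1, were highest in FNI replicate 3. Over the 14003 genes tested, 29.96% were highest in that library. The lowest value fell in FNI+I-125 replicate 1 for 6 of the 9 genes, ties included, since NEFH was also at 0 in other libraries. Among all genes tested, where a tie counted for 1 library only, the share was 23.0%. The 6 genes that did not pass the filter are outside both of these shares of genes tested.

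**Figure D1:**
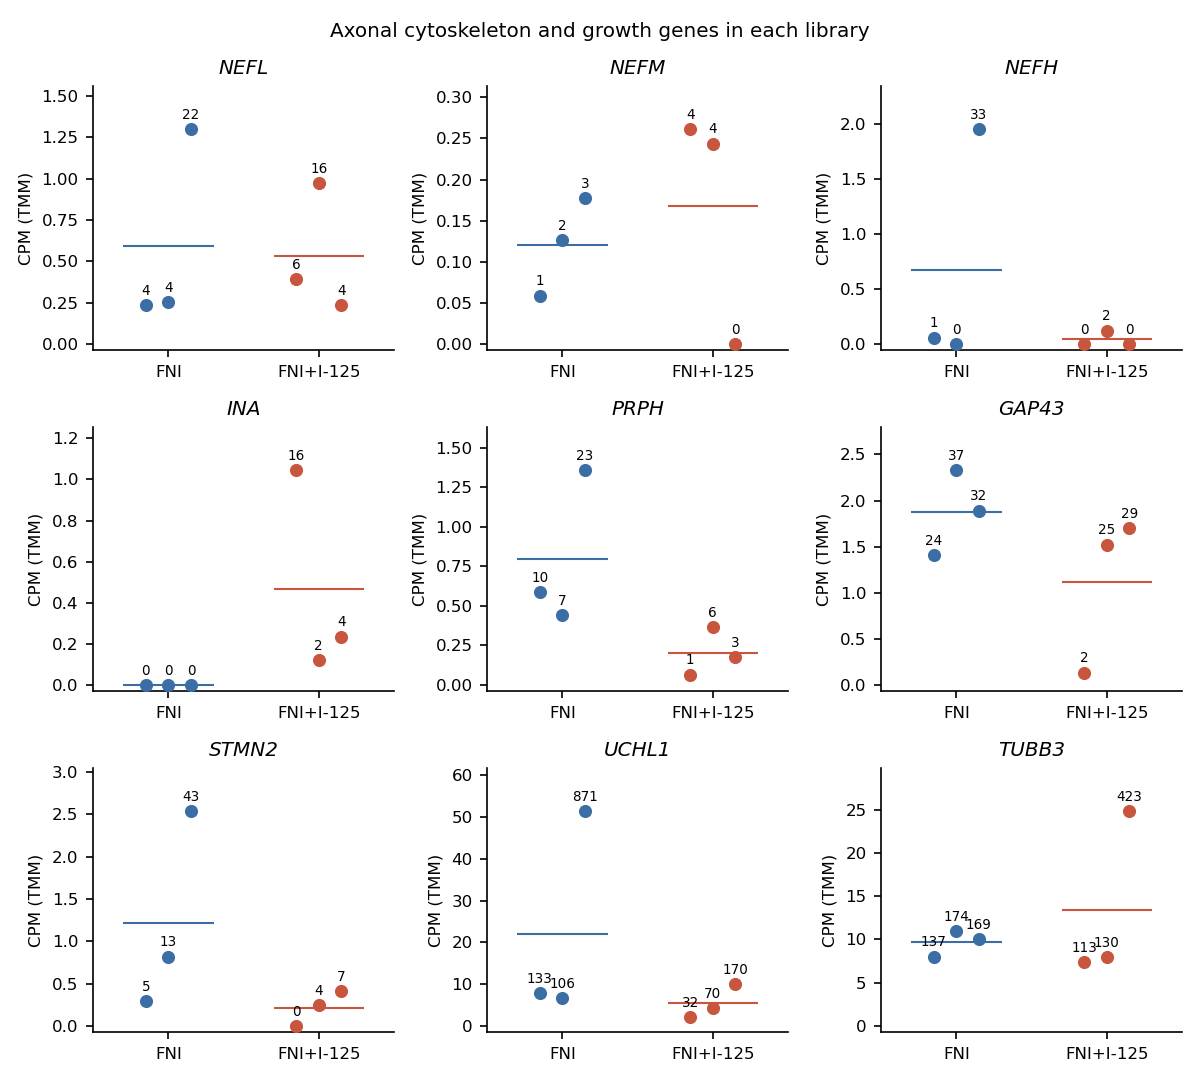
CPM (TMM-normalized, linear axis from 0, a separate scale for each gene) of the 9 genes in FNI and FNI+I-125 libraries, drawn from left to right as replicates 1, 2 and 3, with the number of counts above each point and a line at the group mean. UCHL1 reaches 871 counts in FNI replicate 3 and TUBB3 reaches 423 counts in FNI+I-125 replicate 3, while the neurofilament genes stay at 33 counts or fewer.

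NEFL, the subunit on which the neurofilament is built, had 4, 4 and 22 counts in FNI nerves (replicates 1, 2 and 3, an order kept throughout) and 6, 16 and 4 counts in FNI+I-125 nerves. NEFM, which forms side arms of the filament, had 1, 2 and 3 counts against 4, 4 and 0 counts. NEFH, the subunit with the longest phosphorylated tail, had 1, 0 and 33 counts against 0, 2 and 0 counts. The groups overlapped for all 3 subunits, and each group held at least 1 library with 4 counts or fewer of each subunit. In CPM, NEFL stood at 0.595 ± 0.61 in the FNI group and at 0.534 ± 0.389 in the FNI+I-125 group (SD, n = 3 each; two-sided exact permutation of log2(CPM + 1), p = 0.9). NEFM stood at 0.121 ± 0.0596 against 0.168 ± 0.146 CPM (SD, n = 3 each; exact permutation test, p = 0.7), which is under the level of 3 counts in both groups. NEFH stood at 0.670 ± 1.11 against 0.0406 ± 0.0703 CPM (SD, n = 3 each; exact permutation test, p = 0.7), and 33 of its 34 counts in the FNI group came from FNI replicate 3. With 3 rabbits against 3, this permutation test cannot give a p below 0.1.

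The make-up of the triplet could be read in 1 library. In FNI replicate 3, the library with over 30 reads of the triplet, NEFH held 56.9% of the 58 triplet reads (95% exact binomial interval 43.2 to 69.8%). In the same library NEFL held 37.9% (25.5 to 51.6%) and NEFM held 5.17% (1.08 to 14.4%). These shares are not corrected for transcript length, and the intervals cover counting error only. In FNI+I-125 replicate 2, the library with the next highest number of triplet reads, 16 of the 22 reads lay on NEFL and 2 lay on NEFH.

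INA, the α-internexin gene, had no count in any FNI library and 16, 2 and 4 counts in FNI+I-125 nerves. Pooled over the FNI+I-125 libraries, the 22 counts of INA stood at 7.50 times a floor of 3 counts over the FNI group. Without FNI+I-125 replicate 1, which held 16 of them, the remaining 6 counts stood at 2.98 times this floor. Both ratios take the FNI+I-125 counts as exact and leave out the spread between rabbits, so they are not lower bounds. In an edgeR fit without the filter on low counts, INA had an adjusted p of 0.322. Its unadjusted p was 0.0221 in that edgeR fit. At an unadjusted p under 0.05 with a log2 fold change of 1.5 or more, 2.99% of all 17396 genes were higher. In the RefSeq table INA overlaps NT5C2, and the strand setting used for counting is not given in the sources used here. NT5C2 stood at 86.4, 89.6 and 142 CPM in FNI nerves and at 93.7, 105 and 90.2 CPM in FNI+I-125 nerves. The part of NT5C2 reads in the counts of INA was not tested.

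PRPH, the peripherin gene of peripheral neurons, had 10, 7 and 23 counts in FNI nerves and 1, 6 and 3 counts in FNI+I-125 nerves. No FNI+I-125 library reached the lowest FNI library (p = 0.1 by exact permutation, the floor of this design). The nearest libraries of the groups differed by 1 count, 7 in FNI replicate 2 against 6 in FNI+I-125 replicate 2, which is within counting error. PRPH stood at 0.795 ± 0.494 CPM in the FNI group and 0.202 ± 0.152 CPM in the FNI+I-125 group (SD, n = 3 each). In the unfiltered edgeR fit PRPH differed by -1.94 on the log2 scale (SE 0.84, adjusted p = 0.347, edgeR). Of the 9 genes, INA was higher without overlap between the groups and PRPH was lower without overlap. Over all 17396 genes, 12.7% were higher without overlap and 10.7% were lower without overlap.

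STMN2, the tubulin-binding growth protein, had 5, 13 and 43 counts in FNI nerves and 0, 4 and 7 counts in FNI+I-125 nerves. FNI replicate 3 was the highest library and FNI+I-125 replicate 1 the lowest, and the groups overlapped at FNI replicate 1 and FNI+I-125 replicate 3 (exact permutation test, p = 0.2). STMN2 differed by -2.44 on the log2 scale in the unfiltered fit (SE 1.24, adjusted p = 0.385, edgeR). No gene of the 9 was called in that fit at an adjusted p under 0.05, where 0% of all genes were called.

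GAP43, the growth cone protein, had 24, 37 and 32 counts in FNI nerves, or 1.41, 2.33 and 1.89 CPM. With I-125 the counts were 2, 25 and 29, or 0.131, 1.52 and 1.70 CPM. FNI+I-125 replicate 1 was far below the other 5 libraries, and FNI+I-125 replicates 2 and 3 lay within the range of the FNI group. The 2 counts of FNI+I-125 replicate 1 allow 0.0146 to 0.435 CPM of the library total (95% exact binomial interval), and the lowest other library, with 24 counts, allows 0.922 to 2.14. The group values were 1.88 ± 0.463 CPM against 1.12 ± 0.860 CPM (SD, n = 3 each; exact permutation test, p = 0.3). GAP43 had a fitted difference of -0.74 on the log2 scale (SE 0.82, 95% interval -2.74 to 1.26, adjusted p = 0.637, edgeR, Benjamini-Hochberg over 14003 genes). Leaving out 1 library moved it from -1.17, without FNI+I-125 replicate 3, to -0.22, without FNI+I-125 replicate 1. In the RefSeq table GAP43 overlaps a long noncoding RNA gene that is not analysed here.

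UCHL1, the neuronal ubiquitin hydrolase, had 133, 106 and 871 counts in FNI nerves, or 7.79, 6.68 and 51.5 CPM. With I-125 it had 32, 70 and 170 counts, or 2.09, 4.26 and 9.98 CPM. FNI replicate 3 lay far above all other libraries. FNI+I-125 replicate 3 lay above FNI replicates 1 and 2, so the groups overlapped (p = 0.3 by exact permutation). UCHL1 stood at 22.0 ± 25.6 CPM in the FNI group and 5.44 ± 4.07 CPM in the FNI+I-125 group (SD, n = 3 each). The log2 fold change was -2.01 (SE 1.00, 95% interval -4.45 to 0.43, adjusted p = 0.335, edgeR). Without FNI replicate 3 it was -0.43 (adjusted p = 0.802, edgeR), and with any other library left out it ran from -2.79 to -1.62.

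TUBB3, the neuronal β-tubulin, had 137, 174 and 169 counts in FNI nerves, or 8.02, 11.0 and 9.99 CPM. With I-125 it had 113, 130 and 423 counts, or 7.39, 7.91 and 24.8 CPM. FNI+I-125 replicate 3 was above all other libraries, and the other FNI+I-125 libraries were below all FNI libraries. The values were 9.66 ± 1.5 CPM against 13.4 ± 9.92 CPM (SD, n = 3 each; exact permutation test, p = 1). The log2 fold change was 0.47 (SE 0.51, 95% interval -0.79 to 1.73, adjusted p = 0.631, edgeR). Its sign rests on FNI+I-125 replicate 3, without which it was -0.34 (adjusted p = 0.480, edgeR). β-Tubulin genes share long stretches of coding sequence, and how reads that map to several genes were counted is not given in the sources used here, so the level of TUBB3 is uncertain to that extent. TUBB6 and TUBB4A, other β-tubulin genes, are listed in the files under their own symbols.

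The main fit tested 3 of the 9 genes, UCHL1, GAP43 and TUBB3. None of them was called at an adjusted p under 0.05 with |log2 FC| of 1.5 or more. In that fit edgeR called 0% of the 14003 genes tested in either direction. Without adjustment, at p under 0.05 and this fold change, 2.77% of all genes tested were higher and 2.19% were lower, and none of UCHL1, GAP43 and TUBB3 was among them. DESeq2 called 2.08% of genes higher and 1.26% lower at its adjusted threshold with this fold change, or 6.48% at any size. UCHL1, GAP43 and TUBB3 were not among them, and DESeq2 gave no adjusted p to the other 6 genes. DESeq2 put UCHL1 at -2.03 (SE 0.91, adjusted p = 0.154). At its unadjusted threshold UCHL1 was counted as lower, as were 2.85% of all genes, and INA as higher, as were 3.65% of all genes. The plot of fitted changes under each setting shows that the choice of library moved these values more than the choice of normalization. The intervals of UCHL1 and GAP43 include decreases of more than 1.5 on the log2 scale, and that of TUBB3 includes an increase of that size, so these data leave such changes undetermined.

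To see which cells the transcripts may come from, 20 genes of neuron bodies and transmitter systems were read in the same libraries. Of these, 13 were listed and 5 passed the filter. RBFOX3, the NeuN gene of neuronal nuclei, had 7, 9 and 6 counts in FNI nerves and 0, 9 and 8 counts in FNI+I-125 nerves. SNAP25, of the synaptic release machinery, had 1 to 7 counts per library, ELAVL4, a neuronal RNA-binding protein, had 0 to 3, and CHAT, the acetylcholine synthesis enzyme of motor neurons, had 0 to 6. None of these 4 neuron genes reached 10 counts in any library, whereas other genes of the same list, given next, did so.

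The neuron genes with at least 10 counts in a library were SYT1, SYN1, SYP, TRPV1 and CHGB. SYP, a protein of synaptic and secretory vesicles, had 54, 32 and 85 counts against 25, 47 and 41 counts. CHGB, a protein of secretory granules that gland and endocrine cells also make, had 114, 86 and 102 counts against 81, 66 and 81 counts. TRPV1, the heat-gated channel of sensory neurons, had 45, 25 and 53 counts against 16, 23 and 16 counts. SYN1, a synaptic vesicle protein, had 15, 16 and 19 counts against 45, 51 and 16 counts. SYT1 had 2 to 16 counts. CHGB and TRPV1 were lower without overlap, as were 12.3% of all genes tested. The adjusted p of the 5 neuron genes tested ran from 0.281 to 0.869 (edgeR). CHGB had the most counts of the 13 genes in every library. The summed level of the 13 genes was 14.7, 11.5 and 17.6 CPM in FNI nerves and 12.9, 13.1 and 10.8 CPM in FNI+I-125 nerves. These sums overlapped between the groups, and FNI replicate 3 was again the highest library.

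Schwann cell genes were read in 3 lists, and all 17 were tested. The 5 myelin genes given above had negative log2 fold changes with a median of -3.29, against a median of 0.01 over all genes tested. Without FNI replicate 3 the median of these 5 genes was -1.81, and without FNI+I-125 replicate 2 it was -5.51. The summed level of SOX10, S100B, ERBB3 and CDH19, which all Schwann cells make, was 805, 754 and 1692 CPM in FNI nerves and 168, 469 and 634 CPM in FNI+I-125 nerves. FNI+I-125 replicate 1, the library with 2 counts of GAP43 and the lowest UCHL1, was the lowest in this list. The summed level of NGFR, L1CAM, NCAM1, CDH2, FABP7, SHH, GDNF and OLIG1, which mark immature or repair Schwann cells, was 884, 921 and 406 CPM against 263, 579 and 1035 CPM. FNI+I-125 replicate 3, the library with the highest TUBB3, was the highest in this sum, though FNI replicate 2 was the highest by the mean of log2(CPM + 1), at 5.30 against 5.11. FNI+I-125 replicate 1 was the lowest by both. No Schwann cell gene had an adjusted p under 0.05 in edgeR, where 0% of all genes tested did. At an unadjusted p under 0.05 with |log2 FC| of 1.5 or more (edgeR), 5 of the 17 were lower and 0 higher. Over all genes tested these shares were 2.19% and 2.77%. Without overlap between the groups, 5 of the 17 were lower and 0 higher, against 12.3% and 14.8% of all genes tested. The plot of marker lists by library gives the sums of the Schwann cell lists beside those of neuron bodies, muscle, macrophages and gland.

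**Figure D2:**
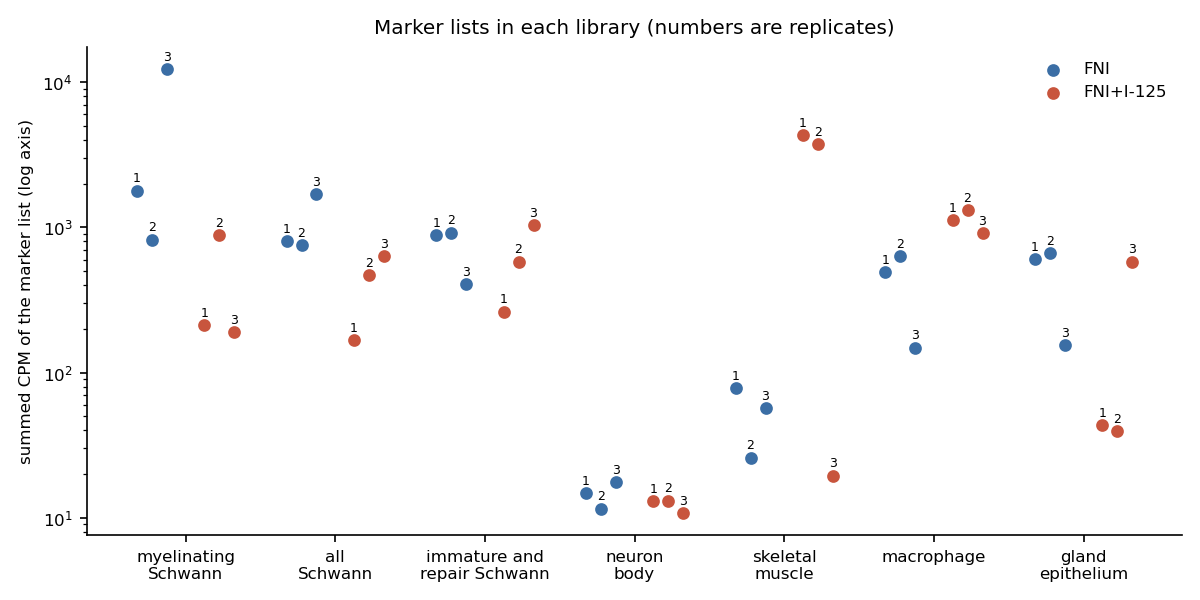
Summed CPM (log axis) of marker genes in each library, for 3 Schwann cell lists, neuron bodies, skeletal muscle, macrophages and gland epithelium, with the replicate number above each point. The sum of the neuron body list, in which CHGB has the most counts, lies between 10.8 and 17.6 CPM in all 6 libraries. The myelin list runs from 190.1 to 12310 CPM.

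GAP43, UCHL1 and TUBB3 followed these lists differently. As a description over 6 libraries, with list and gene measured in the same RNA, Pearson's r between log2(CPM + 1) of the gene and the mean of the list was taken. For the list of all Schwann cells r was 0.90 for GAP43, 0.81 for UCHL1 and 0.27 for TUBB3. By rank (Spearman's rho) the values with this list were 0.54 for GAP43, 0.83 for UCHL1 and 0.49 for TUBB3. FNI+I-125 replicate 1 was the lowest library for each of these genes and for this list. For the myelin list r was 0.46 for GAP43, 0.75 for UCHL1 and -0.39 for TUBB3. For the list of immature and repair Schwann cells r was 0.71 for GAP43, -0.01 for UCHL1 and 0.53 for TUBB3, which was the highest r of TUBB3 with any list. Without FNI replicate 3 the r of UCHL1 with the myelin list was 0.19, and with the list of immature and repair Schwann cells r was 0.92 for UCHL1, 0.95 for GAP43 and 0.57 for TUBB3. Lists of other cells gave values of like size in the same libraries. Without FNI replicate 3, UCHL1 had an r of -0.91 with skeletal muscle and 0.81 with gland epithelium, and GAP43 of -0.85 with fibroblasts. Over all 6 libraries these were -0.63, -0.12 and -0.73. For the neuron body list r was -0.05 for GAP43, 0.61 for UCHL1 and -0.47 for TUBB3, and without FNI replicate 3 it was -0.53, -0.58 and -0.81. The lists with the highest or lowest r were not those of Schwann cells for every gene. UCHL1 had its highest r with the adipocyte list (0.92, or 0.62 without FNI replicate 3) and its lowest with the macrophage list (-0.93, or -0.69 without it). TUBB3 had its lowest r with vimentin and the other non-neuronal filament genes (-0.76), and its order over the libraries was the reverse of the skeletal muscle list (r = -0.63, Spearman's rho = -1). The part of these cell types in the levels was not tested.

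The same measure was used to find the genes most like each member among 12438 genes with a mean of at least 1 CPM. LRRC57 (r = 0.997), NFYC (r = 0.995) and LRRC4C (r = 0.99) came first for GAP43. LRRC57 spanned 20.7 to 27.2 CPM, so that its pattern was like that of GAP43 in order but far smaller in size, and LRRC4C ran from 1.83 CPM in FNI+I-125 replicate 1 to 7.56 CPM in FNI replicate 2. For UCHL1 they were FGF12 (r = 0.998), MAP9 (r = 0.997) and KATNAL1 (r = 0.997). FGF12 reached 19.1 CPM in FNI replicate 3, against 0.784 to 4.93 CPM in the other libraries. For TUBB3 they were SLC4A9 (r = 0.99), ANKH (r = 0.98) and AGA (r = 0.961). ANKH stood at 276 CPM in FNI+I-125 replicate 3 and at 163 to 202 CPM in the other libraries. These are the highest of many values over 6 libraries and are given as a description of pattern only. Among themselves, GAP43 and UCHL1 had an r of 0.59, GAP43 and TUBB3 of 0.41, and UCHL1 and TUBB3 of 0.28. Without FNI replicate 3 these were 0.82, 0.43 and 0.69.

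The other genes of the axonal cytoskeleton and of axon growth were taken from a list of 44 genes, of which 40 were in the files and 36 were tested. Unlike the neurofilament genes, most of these genes were well measured, and many are also made outside neurons. None was called at an adjusted p under 0.05 with |log2 FC| of 1.5 or more by edgeR. At an unadjusted p under 0.05 with that fold change, 1 was higher and 3 were lower, against 2.77% and 2.19% of all genes tested. DESeq2 called the same 4 genes at its adjusted threshold, BASP1 as higher and MAPT, KIF1A and SNCG as lower. The log2 fold change was below 0 for 25 of the 36 genes (69.4%), with a median of -0.33, where 48.9% of all genes tested lay below 0. This rests on FNI replicate 3. Without it 18 genes lay below 0 and 18 above, with a median of -0.01, and no gene of the list was left at the unadjusted p with that fold change. The 3 lower genes also lost that threshold without FNI+I-125 replicate 1, with limma-voom and in a fit with a replicate block, where 0 were lower and 2 were higher in each. Without overlap between the groups, 5 of the genes were higher and 6 were lower, against 14.8% and 12.3% of all genes tested.

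The microtubule-associated proteins, which stabilise axonal microtubules, gave 2 genes at an unadjusted p under 0.05. MAPT, the tau gene, stood at 15.9, 12.2 and 45.2 CPM in FNI nerves and at 7.12, 8.16 and 6.75 CPM in FNI+I-125 nerves. Its log2 fold change was -1.73 (SE 0.52, adjusted p = 0.280, edgeR), or -0.95 without FNI replicate 3. MAP1A stood at 125, 105 and 127 CPM against 181, 165 and 156 CPM, a small difference without overlap (log2 fold change 0.49, SE 0.13, adjusted p = 0.280, edgeR).

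Among the growth cone membrane proteins, BASP1, which like GAP43 lies on the inner face of the membrane, stood at 29.5, 32.5 and 9.40 CPM in FNI nerves. With I-125 it stood at 91.5, 90.8 and 65.4 CPM, all above the FNI group. For BASP1 the log2 fold change was 1.79 (SE 0.47, adjusted p = 0.280, edgeR), and without FNI replicate 3 it was 1.40. MARCKSL1, of the same group of membrane proteins, stood at 99.3, 95.9 and 37.4 CPM against 231, 103 and 159 CPM (log2 fold change 1.08, adjusted p = 0.302, edgeR). BASP1 and MARCKSL1 thus lay in the opposite direction to GAP43. The other tested gene of this role had, like GAP43, a log2 fold change below 0. None of BASP1, MARCKSL1 and GAP43 passed the threshold in edgeR, and the difference between them was not tested. The macrophage list was also higher without overlap, at 494, 637 and 148 CPM against 1124, 1322 and 914 CPM in sum, and its part in these levels was not tested.

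The axonal motors and the axon maintenance genes held the most negative fitted values of the list. SNCG, the γ-synuclein gene of peripheral neurons, stood at 43.7, 100 and 573 CPM in FNI nerves and at 15.9, 44.3 and 24.0 CPM in FNI+I-125 nerves. For SNCG the log2 fold change was -3.09 (SE 1.04, adjusted p = 0.280, edgeR), or -1.37 without FNI replicate 3. KIF1A, a kinesin that carries vesicles along axons, stood at 6.56, 3.28 and 37.9 CPM against 1.11, 3.59 and 1.41 CPM. Its log2 fold change was -2.96 (SE 1.05, adjusted p = 0.280, edgeR), or -1.28 without that library. The groups overlapped for both genes, and FNI replicate 3 was the highest library for both, as it was for UCHL1 and for the myelin genes. γ-Synuclein is also known from fat cells, and the summed level of ADIPOQ, LEP and FABP4, genes of adipocytes, was 1274, 1488 and 2617 CPM in FNI nerves and 879, 892 and 1037 CPM with I-125. The groups did not overlap for that sum, and its part in the level of SNCG or UCHL1 was not tested. KIF3A, another kinesin, stood at 15.9 to 57.3 CPM against 10.5 to 18.0 CPM, and NMNAT2, an axon survival enzyme, at 16.8 to 29.0 CPM against 12.7 to 20.7 CPM. Their adjusted p was 0.353 and 0.343 (edgeR).

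All 5 genes of the spectrins and ankyrins, which form the lattice under the axonal membrane and also occur in Schwann and other cells, had a log2 fold change below 0, and 4 had an unadjusted p under 0.05, where 17.0% of all genes tested did. ANK2 stood at 110, 148 and 121 CPM against 81.3, 93.5 and 98.8 CPM (log2 fold change -0.47, SE 0.16, adjusted p = 0.280, edgeR). SPTBN1 stood at 1426, 1382 and 2139 CPM against 813, 1176 and 999 CPM (log2 fold change -0.73, SE 0.26, adjusted p = 0.280, edgeR). Both were lower in every FNI+I-125 library than in any FNI library. SPTBN1 was at -0.51 on the log2 scale once FNI replicate 3 was left out.

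The remaining roles held no gene at an unadjusted p under 0.05. TUBA4A, an α-tubulin, stood at 14.3, 18.1 and 3.25 CPM against 31.0, 40.4 and 26.3 CPM (log2 fold change 1.45, adjusted p = 0.296, edgeR). TUBB6 stood at 105 to 158 CPM against 156 to 250 CPM. DPYSL3, a collapsin response mediator that links guidance signals to the cytoskeleton, stood at 345, 308 and 131 CPM against 438, 375 and 470 CPM, and DPYSL5 stood at 0.234 to 1.60 CPM against 0.261 to 2.64 CPM. STMN1, the stathmin of dividing cells, stood at 37.4, 29.9 and 129 CPM against 31.4, 35.1 and 41.5 CPM, and its log2 fold change of -0.86 became 0.08 without FNI replicate 3. ATF3, a transcription factor induced by nerve injury, stood at 69.3, 66.2 and 16.5 CPM against 50.4, 279 and 234 CPM (log2 fold change 1.89, adjusted p = 0.299, edgeR). JUN, which drives the repair programme of Schwann cells, stood at 118 to 200 CPM against 166 to 248 CPM. The plot of the list by role shows these values with their standard errors.

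**Figure D3:**
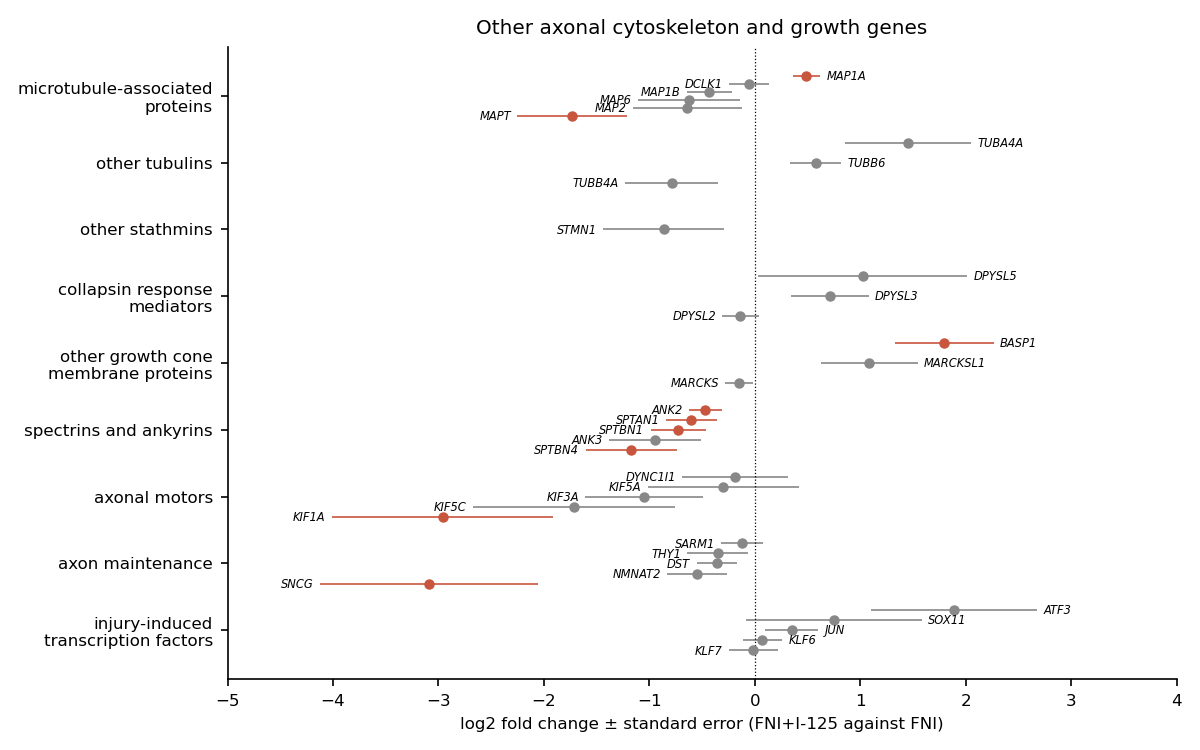
Log2 fold change (FNI+I-125 against FNI, x axis) ± standard error from edgeR for the 36 tested genes of the axonal cytoskeleton and growth list, grouped by role, with genes at an unadjusted p under 0.05 in red. All 5 spectrins and ankyrins lie below 0, BASP1 lies at 1.79, and SNCG and KIF1A lie at -3.09 and -2.96 with wide errors.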

How the data were processed

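The authors made poly(A) libraries with a stranded kit, sequenced them as paired-end Illumina reads and deposited raw counts per gene, 1 file per library. Per the labels, HISAT2 and the build OryCun2.0 were used. The counting program and its strand setting are not given in the sources used here. No coordinates are printed, because the gene table here is of another build. That table named 542 of the 2992 LOC numbers. The labels name no batch.

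Counts were fitted in R 4.3.3 with edgeR 4.0.16 (quasi-likelihood, TMM factors 0.923 to 1.06, filterByExpr with a minimum count of 10, 14003 genes, Benjamini-Hochberg adjustment, two-sided). Standard errors are the log2 fold change divided by the root of F. The alternatives were DESeq2 1.42.0, limma-voom (limma 3.58.1), other normalizations, filters and dispersion settings, a replicate block, and each library left out. The fit was tested on simulated data. The members, the lists (written from general knowledge) and the tests were chosen with earlier results of these data known. Named were the members, the 3 genes most like each, the 2 smallest p per role of the axon list (SPTAN1, SPTBN4 and others counted only), and neuron genes with at least 10 counts in a library. Top genes of the other marker lists were not printed. Replicates are separate rabbits per the methods, and no pair of libraries agreed within sampling noise. Some marker genes are not reported here and were left out of the marker lists and their sums.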

Additional observations from a re-analysis of the deposited data

How the results depend on the processing

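The count of members called at an adjusted p under 0.05 was 0 under 15 alternative settings. Of the 9 members, 3 had an adjusted p in the main fit and in DESeq2, and all 9 had one in the fit without a filter. A gene without an adjusted p could not be called. Over all genes, 38 were higher and 2 lower without FNI+I-125 replicate 3, so that leaving out 1 library gave 0 to 38 higher and 0 to 2 lower. DESeq2 gave 289 higher and 175 lower over all genes, and 1 higher (BASP1) and 3 lower (MAPT, KIF1A and SNCG) in the axonal cytoskeleton list, where the other alternatives gave 0 in that list. Leaving out 1 library, the log2 fold change of TUBB3 ran from -0.34 (without FNI+I-125 replicate 3) to 0.76, that of STMN1 from -1.21 to 0.077 (without FNI replicate 3), and, without a filter, that of NEFL (-0.16) from -0.94 (without FNI+I-125 replicate 2) to 1.10 (without FNI replicate 3), and that of NEFH (-3.81) from -6.49 (without FNI+I-125 replicate 2, which leaves 0 counts in its group and no bound) to 0.35 (without FNI replicate 3). NEFL also turned positive without FNI+I-125 replicate 1 (0.02) or 3 (0.20). Without FNI+I-125 replicates 1 and 2 together, the lone sample being assumed to vary like the others, UCHL1 was at -1.17, GAP43 at -0.18 and TUBB3 at 1.33 (adjusted p 0.852 to 0.951, edgeR). The unfiltered omissions and that of both libraries were chosen after seeing the data. The r of UCHL1 with the list of immature and repair Schwann cells reversed to 0.92 without FNI replicate 3, an alternative also chosen after seeing the data. Causes were not tested. With a replicate block the log2 fold changes were -1.65 for UCHL1 (SE 0.42, adjusted p = 0.277, edgeR), -1.15 for GAP43 and 0.24 for TUBB3, and no call at an adjusted p changed. The numbers do not pair the libraries: the deviations of same-numbered libraries from their group means had an r of 0.05, -0.23 and -0.19. The test of triplet shares was not run, since 5 libraries held under 30 triplet reads. Which sizes of change could be detected in the 6 genes that failed the filter was not tested. In the unfiltered fit NEFH at -3.81 (adjusted p = 0.404, edgeR) and STMN2 at -2.44 (adjusted p = 0.385, edgeR) were not called, so large changes in these genes are left undetermined.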
